A study of Mus musculus with 10 samples.

Results

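The genes described here encode the enzymes that add methyl groups to histones and DNA, those that remove them, and their closest partners, in leukaemia cells and in non-leukaemic myeloid cells from the bone marrow of mice with leukaemia. They were taken by name from the deposited table: entries that begin with Kdm (without Kdm5c, Kdm5d and Kdm6a), Kmt, Setd, Suv, Prmt, Dnmt, Tet and a digit, Ezh, Nsd, Ehmt or Prdm, and a set of 13 further genes, of which Men1 and Whsc1 had no row under those names. The rule found 64 of the 10141 genes. Of these, Nsdhl matched by its letters alone, since it encodes a sterol dehydrogenase, and the 63 others are counted below: 33 writers (methyltransferases, Kmt2e, counted by its name, and the cofactor gene Dnmt3l), 15 erasers, 8 complex subunits and partners, and 7 other SET or PR domain proteins. CD45.1 mice received, by tail vein, cells with the MLL-AF9 fusion and green fluorescent protein (GFP), and marrow was taken once GFP+ cells made up 2% of blood. The 2 groups were GFP+ leukaemia cells and GFP- CD11b+ myeloid cells, with 5 RNA-seq libraries each, and all 10 libraries carry the genotype label MLL-AF9/GFP and come from marrow that holds leukaemia. The cell type label names leukaemia cells for all 10, so groups were taken from the titles. The series design text describes magnetic selection of CD45.2- CD11b+ cells, while the treatment protocol describes flow sorting of both populations. The labels do not give the age or sex of the mice, or say that each library came from its own mouse, so p-values measure the spread between these libraries. Normal immature cells were not analysed here, so leukaemia and immaturity cannot be told apart.

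Methyl marks on histones are placed by SET domain enzymes, by DOT1L and by arginine methyltransferases, and are removed by the flavin-dependent LSD enzymes and the JmjC dioxygenases, which use 2-oxoglutarate. Methylation of histone H3 at lysine 4, 36 or 79 is found at active genes, whereas methylation at lysine 9 or 27 is found in silent chromatin. MLL (KMT2A, whose own gene was not analysed here) writes lysine 4 methylation. The MLL-AF9 protein lacks its SET domain and, through AF9 (MLLT3), binds DOT1L and the elongation complex that holds AFF1, AFF4 and ENL (MLLT1).

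Whole reads were recovered from the deposited log2 values, and levels below are normalised reads, that is, reads over the library's size factor. Reads summed over all 10141 genes came to between 24099545 and 30879471 in the leukaemia libraries and between 24712829 and 32247826 in the myeloid ones. Log2 differences are leukaemia minus myeloid on the deposited scale, tested with limma and adjusted by the Benjamini-Hochberg method over the 8079 genes whose mean lay more than 1 unit above the lowest value (about 145.2 normalised reads). Folds are ratios of mean normalised reads, and differ from the log2 difference where reads are few. The table held few genes without a difference: 99.8% of tested genes passed, 49.1% higher and 50.7% lower in leukaemia, and the groups did not overlap for 86.8%. A call is therefore the usual outcome in this table, and the size of a difference says more. Direction also depended on how libraries were scaled, since scaling each library to its summed reads (total scaling) raised the median log2 fold of all tested genes by 0.64 (from -0.21 to 0.43), and quantile normalisation raised it by 0.25 (from -0.16 to 0.09). Below, "under all 3 scalings" means a call in the same direction with the deposited values, after quantile normalisation and under total scaling. Total scaling was fitted with voom on the recovered reads, a log2 scale that does not compress low genes. The size of a log2 fold under total scaling is therefore not comparable with a log2 difference on the deposited scale. In bulk samples, fewer cells of a type and less RNA per cell cannot be told apart. Neutrophil markers, all 12 of them lower in leukaemia, summed to between 76883 and 80617 normalised reads in leukaemia and between 3045940.0 and 4831920.0 in myeloid libraries, so the sorted myeloid cells carried a strong neutrophil signal.

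Of the 63 members, 58 were tested. All 58 passed, 27 higher and 31 lower in leukaemia, beside the 99.8% of all tested genes. For 53 of these 58 genes all libraries of one group lay above all of the other, beside 86.8% of all tested genes. The median log2 difference of the tested members was -0.21, against -0.16 for all tested genes. Among writers, 17 of 32 were higher and 15 lower, with a median of 0.34. Among erasers, 4 of 15 were higher and 11 lower, with a median of -0.30. These counts moved with the scaling. After quantile normalisation writers were 20 higher and 9 lower and erasers 6 and 6, and under total scaling they were 20 and 8, and 8 and 3. Under all 3 scalings 17 writers were higher and 8 lower, and 4 erasers were higher and 3 lower, while 7 writers and 8 erasers depended on the scaling. For all tested genes the corresponding shares were 44.6% higher, 27.6% lower and 27.9% dependent. An absolute log2 difference of at least 1 was reached by 6 members that were higher (9.52% of all tested genes) and 6 that were lower (18.1%). The higher ones were Prmt5, Ash2l, Prmt1, Prmt7, Dnmt1 and Kdm2b. The lower ones were Kdm7a, Kdm6b, Nsd3, Kmt5a, Aff4 and Prdm2.

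**Figure D1:**
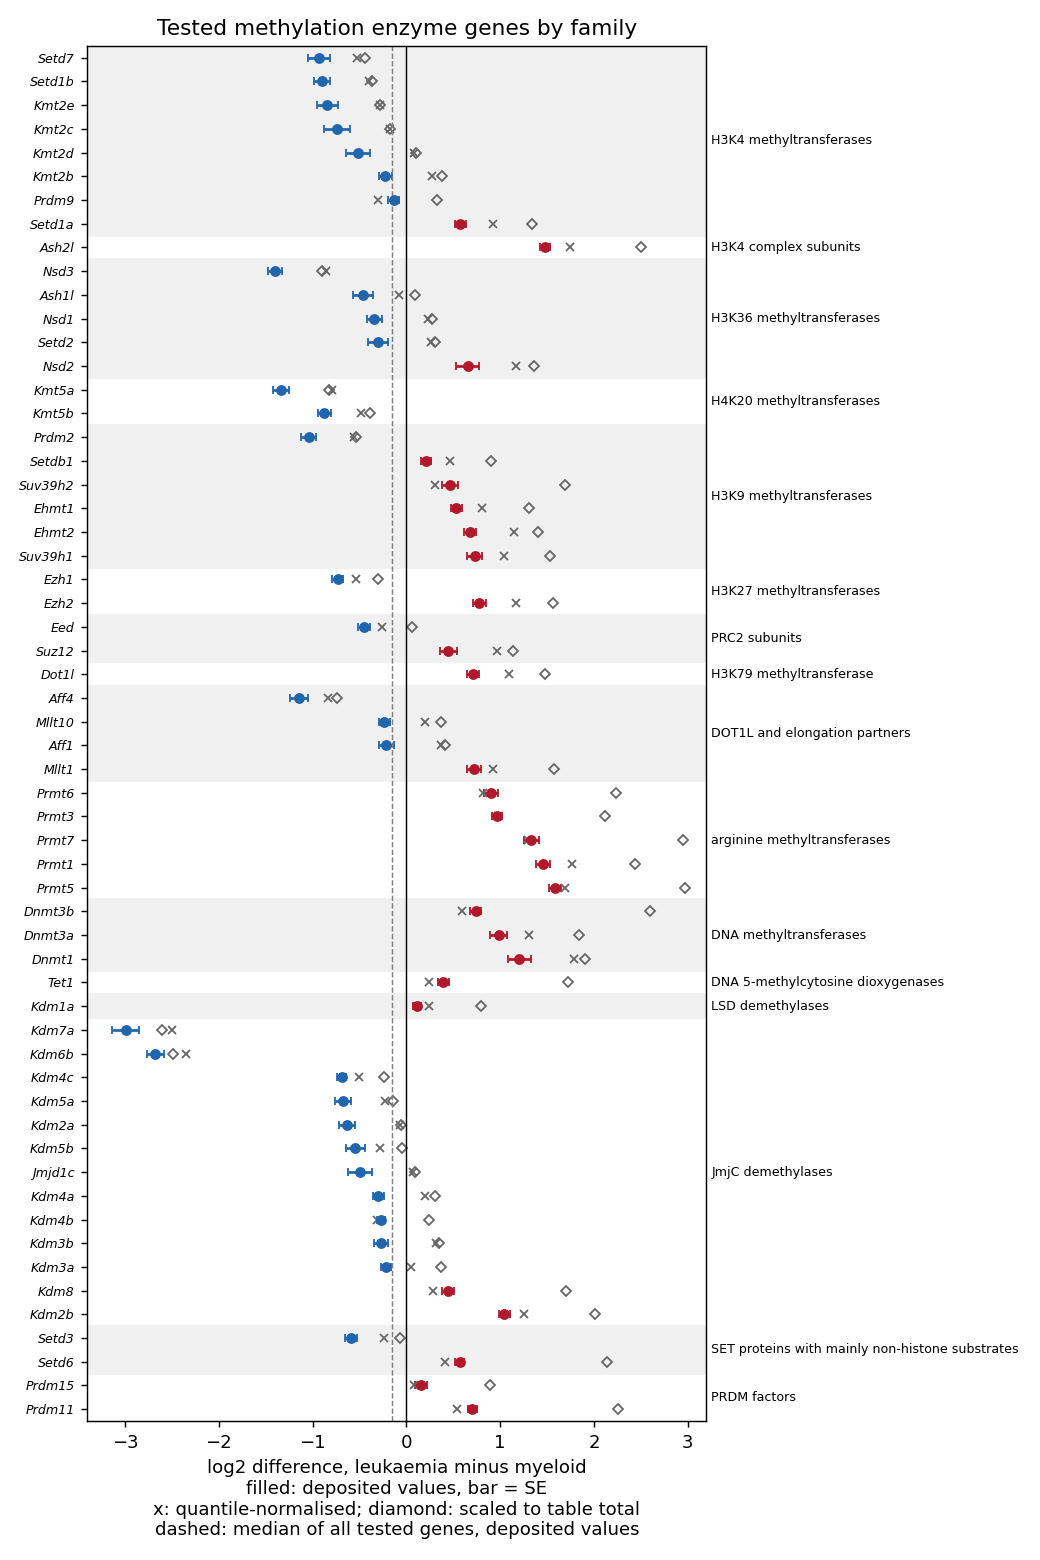
Log2 difference (leukaemia minus myeloid, x axis) of each tested member, grouped by family (y axis), as filled points with the SE from limma over 5 libraries a group. Crosses and open diamonds give the same gene after quantile normalisation and under total scaling (scaled to table total). Diamonds are log2 folds from voom, which does not compress low genes, so their distance from the filled points mixes scale and scaling. All 5 arginine methyltransferase genes lie to the right of 0 under every scaling shown, Kdm7a and Kdm6b lie far to the left, and points near 0 among the H3K4, H3K36 and JmjC genes change side.

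The arginine methyltransferases were higher in leukaemia as a family. All 5 with an entry rose, from 2.79-fold for Prmt3 to 5.05-fold for Prmt5, under all 3 scalings and with no overlap between groups. Prmt5, whose product makes symmetric dimethylarginine on histones and on splicing proteins, had 2002, 2235, 2503, 2298 and 2401 normalised reads in leukaemia replicates 1 to 5, against 428, 526, 498, 434 and 378 in myeloid replicates 1 to 5 (log2 difference 1.59, SE 0.0646, adjusted p = 1.23e-10). The lowest leukaemia library, replicate 1, lay far above the highest myeloid one, replicate 2. Prmt1, the gene of the main enzyme of asymmetric dimethylation, was read at 3995, 4516, 4615, 4116 and 4398 in leukaemia and 1239, 1551, 1183, 1241 and 1033 in myeloid replicates 1 to 5 (3.46-fold higher, log2 difference 1.46, SE 0.0746, adjusted p = 8.96e-10). Prmt7, a monomethyltransferase gene, was 4.85-fold higher (1313 ± 114 against 271 ± 67.5 normalised reads, SD, n = 5 each), and myeloid replicates 3 and 4 held the fewest reads. Prmt3, whose product methylates a ribosomal protein, was 2.79-fold higher (1445 ± 51.7 against 518 ± 46). Prmt6, the gene of an H3 arginine 2 methyltransferase, had the lowest log2 difference of the family, with 834, 1012, 1044, 945 and 959 in leukaemia and 424, 332, 328, 291 and 227 in myeloid replicates 1 to 5 (log2 difference 0.90, SE 0.0736, adjusted p = 7.79e-08). The annotation places an antisense transcript over 23.4% of the Prmt6 exon bases, and without a stated strand setting reads of the 2 cannot be separated. Per kilobase of exon, Prmt1 was the most abundant of the 5 in both groups (1264 and 365 normalised reads per kilobase), followed by Prmt5 (578 and 114).

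The DNA methyltransferase genes were also higher in leukaemia. Dnmt1, which copies methylation onto new strands after replication, was the most abundant writer per kilobase in leukaemia (2466 against 1044 in myeloid cells). It had 18289.9, 19181, 17895, 17808 and 17788 normalised reads in leukaemia replicates 1 to 5, against 6173, 9545, 6477, 9622 and 6681 in myeloid replicates 1 to 5 (log2 difference 1.21, SE 0.118, adjusted p = 4.89e-07). The leukaemia libraries lay close together, while myeloid replicates 2 and 4 were well above the other 3 myeloid libraries. The de novo methyltransferase gene Dnmt3a was 2.3-fold higher (3762 ± 488 against 1639 ± 215). Dnmt3b, the other de novo gene, was low in both groups, at 387, 431, 375, 355 and 349 in leukaemia and 133, 118, 74.5, 79.5 and 93.8 in myeloid replicates 1 to 5 (3.8-fold, log2 difference 0.74, SE 0.06, adjusted p = 7.45e-08). Dnmt3l, a cofactor without catalytic activity, lay below the filter on low values with 229.5 ± 42.5 against 60.3 ± 22.4 normalised reads (SD, n = 5 each), and its groups did not overlap.

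Replication genes moved with Dnmt1. Of 28 cell cycle genes listed, 19 were tested, 17 of them higher and 2 lower in leukaemia (median 1.10), and 16 were higher under all 3 scalings. The summed level of the list was 123800.0, 133071, 119491, 136138 and 127343 normalised reads in leukaemia and 34939, 70175, 43132, 57856 and 42218 in myeloid replicates 1 to 5. Myeloid replicates 2 and 4 had the highest sums of their group, as they had for Dnmt1, Ezh2, Suv39h1, Nsd2 and Suz12. This was not particular to genes higher in leukaemia. Replicates 2 and 4 were also the highest of their group for Kmt5a, Nsd3, Kdm6b, Setd7 and Eed, which were lower with the deposited values. The same libraries also differed in cell type markers. Neutrophil markers summed to 4831920.0 and 4048090.0 normalised reads in them, against 3045940.0 to 3355360.0 in the other 3 myeloid libraries. Monocyte and macrophage markers summed to 57204 and 63149, against 97373 to 108107, and dendritic and MHC class II markers to 5823 and 6123, against 39741 to 61563. The part of cell cycle or cell types in these differences was not tested. Without those 2 libraries the log2 difference was 1.42 for Dnmt1, 0.87 for Ezh2, 0.86 for Suv39h1, 0.85 for Nsd2 and 0.55 for Suz12.

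Of the H3K9 methyltransferase genes, whose products mark silent chromatin, 5 of 6 were higher in leukaemia and 1 was lower, each under all 3 scalings. Suv39h1, which trimethylates lysine 9 in heterochromatin, had 2992, 3357, 3075, 3353 and 3178 normalised reads in leukaemia replicates 1 to 5, against 1369, 2055, 1663, 2028 and 1564 in myeloid replicates 1 to 5 (log2 difference 0.73, SE 0.0842, adjusted p = 2.5e-06). The highest myeloid library, replicate 2, lay well below the lowest leukaemia one, replicate 1. Ehmt2 (G9a) was 1.7-fold and Ehmt1 (GLP) 1.58-fold higher, Suv39h2 1.99-fold and Setdb1 1.2-fold. The lower gene was Prdm2 (RIZ), a PR domain protein with H3K9 methyltransferase activity, with 2942, 2486, 2855, 3000.3 and 2833 in leukaemia and 5794, 5931, 6069, 7603 and 6655 in myeloid replicates 1 to 5 (log2 difference -1.04, SE 0.0764, adjusted p = 2.76e-08).

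The Polycomb methyltransferases EZH2 and EZH1, which write H3K27 methylation, moved in opposite directions. Ezh2, the form typical of dividing cells, had 4384, 3926, 4131, 4047 and 4029.9 normalised reads in leukaemia replicates 1 to 5, against 1859.7, 2373, 2082, 2472 and 2092 in myeloid replicates 1 to 5 (log2 difference 0.78, SE 0.0669, adjusted p = 1.31e-07). Ezh1, the form typical of non-dividing cells, had 1322, 1437, 1322, 1192 and 1424 normalised reads in leukaemia replicates 1 to 5, against 2390.2, 2521, 2625, 2708 and 2563 in myeloid replicates 1 to 5 (log2 difference -0.73, SE 0.0542, adjusted p = 2.98e-08). The groups did not overlap for either gene, and both directions held under all 3 scalings. Per kilobase of exon Ezh2 exceeded Ezh1 in leukaemia (614 against 180.0 normalised reads per kilobase), while the 2 were close in myeloid cells (326 against 344). The ratio of Ezh2 to Ezh1 reads in each library was 3.32, 2.73, 3.12, 3.4 and 2.83 in leukaemia and 0.778, 0.941, 0.793, 0.913 and 0.817 in myeloid replicates 1 to 5 (log2 ratio difference 1.51 on the deposited scale). As the 2 genes moved in opposite directions without overlap, the separation of this ratio was fixed, and it is a description. Their core partners also split. Suz12 was higher at 6411, 5732, 6174, 5703 and 5567 in leukaemia and 3319, 5104, 4353, 4428 and 3949 in myeloid replicates 1 to 5 (log2 difference 0.45, SE 0.09, adjusted p = 0.000387), under all 3 scalings. Eed was lower with the deposited values, at 1532, 1494, 1534, 1490.0 and 1335 in leukaemia and 1942, 2403, 2362, 2409 and 1943 in myeloid replicates 1 to 5 (log2 difference -0.45, SE 0.0667, adjusted p = 2.62e-05), and its log2 fold was 0.063 under total scaling. The ratio of Eed to Suz12 reads was 2.11-fold lower in leukaemia (log2 ratio difference -0.90 on the deposited scale), a description for the same reason.

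The promoters of genes that rose and fell are shown to let their bases be compared: Prmt1, Prmt5 and Ezh2 rose, and Ezh1 and Kdm7a (described with the erasers) fell, in each case under all 3 scalings. These 5 were chosen after their values were seen. Each line gives the 250 bases before the transcription start in RefSeq, build GRCm38.p6, 5′ to 3′ on the gene's strand. Capitals mark every CCAAT box (CCAAT, or ATTGG for the other strand) and every E-box (CACGTG, its own reverse complement); neither overlaps the other.
Prmt1 (chr7:44986421-44986670, minus strand): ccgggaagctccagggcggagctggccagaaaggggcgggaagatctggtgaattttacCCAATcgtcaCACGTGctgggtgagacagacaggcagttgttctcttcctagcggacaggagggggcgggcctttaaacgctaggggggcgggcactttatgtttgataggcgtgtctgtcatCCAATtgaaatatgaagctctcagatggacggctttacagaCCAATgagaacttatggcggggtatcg
Prmt5 (chr14:54517471-54517720, minus strand): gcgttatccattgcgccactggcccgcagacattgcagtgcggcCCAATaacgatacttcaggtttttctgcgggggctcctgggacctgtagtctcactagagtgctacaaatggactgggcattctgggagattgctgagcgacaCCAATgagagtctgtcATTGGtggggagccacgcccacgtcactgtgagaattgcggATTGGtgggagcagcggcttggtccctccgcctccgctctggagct
Ezh2 (chr6:47595031-47595280, minus strand): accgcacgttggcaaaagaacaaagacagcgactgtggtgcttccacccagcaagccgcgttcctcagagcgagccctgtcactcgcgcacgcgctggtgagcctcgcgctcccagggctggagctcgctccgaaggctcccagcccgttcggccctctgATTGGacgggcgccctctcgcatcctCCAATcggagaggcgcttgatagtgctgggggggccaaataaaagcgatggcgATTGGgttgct
Ezh1 (chr11:101226464-101226713, minus strand): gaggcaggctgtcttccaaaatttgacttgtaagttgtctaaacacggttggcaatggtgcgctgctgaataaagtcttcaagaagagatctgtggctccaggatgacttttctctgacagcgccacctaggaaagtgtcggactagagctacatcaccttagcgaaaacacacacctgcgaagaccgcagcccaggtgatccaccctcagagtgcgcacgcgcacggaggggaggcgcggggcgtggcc
Kdm7a (chr6:39206774-39207023, minus strand): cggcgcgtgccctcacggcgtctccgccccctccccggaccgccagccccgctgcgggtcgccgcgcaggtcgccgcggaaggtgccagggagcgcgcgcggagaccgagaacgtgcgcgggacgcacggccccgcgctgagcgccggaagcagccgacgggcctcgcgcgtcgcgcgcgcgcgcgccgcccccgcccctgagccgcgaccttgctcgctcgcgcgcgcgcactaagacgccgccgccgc
CCAAT boxes stood at 3 places in the Prmt1 window, 4 in Prmt5 and 3 in Ezh2, and Prmt1 also held an E-box. Neither motif was in the Ezh1 or Kdm7a window. Among 32851 windows of this length over all genes, 33.8% held a CCAAT box and 6.02% an E-box, against 39.2% and 10.8% of the 74 windows of 49 members with an entry. By gene, a CCAAT box was in at least 1 window of 13 of 24 members that were higher under all 3 scalings, 1 of 7 that were lower, and 5 of 13 that depended on the scaling. An E-box was in 4 of 24, 2 of 7 and 0 of 13. The GC box GGGCGG (either strand), found in 32.7% of all windows, was in 64.9% of member windows and in 18 of 24, 3 of 7 and 11 of 13 genes. Of the 49 members, 32 had 1 window and the others more, so counts by gene cannot be set against shares of windows. No share by gene was computed over all genes. These counts describe letters and were not tested.

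Dot1l, the gene of the H3K79 methyltransferase that MLL-AF9 recruits, was higher in leukaemia. It had 3899, 3766, 4244, 3972 and 3977 normalised reads in leukaemia replicates 1 to 5, against 1995, 2142, 2079.6, 2649 and 2294 in myeloid replicates 1 to 5 (log2 difference 0.71, SE 0.0667, adjusted p = 3.26e-07). Its partner genes differed from each other. Mllt1, which encodes the AF9 homologue ENL, was higher at 2111, 2285, 2149.9, 2822 and 2504 in leukaemia and 1068, 1338, 1225, 1369 and 1185 in myeloid replicates 1 to 5 (log2 difference 0.72, SE 0.0752, adjusted p = 8.82e-07), and each leukaemia library exceeded every myeloid one. Aff4, a scaffold gene of the elongation complex, was lower at 1778, 1435, 1900.4, 1322 and 1631 in leukaemia and 3466, 3718, 4604, 4670.0 and 4515 in myeloid replicates 1 to 5 (log2 difference -1.14, SE 0.0958, adjusted p = 1.05e-07), under all 3 scalings. Aff1 (-0.21) and Mllt10 (-0.24), genes of other MLL fusion partners, were lower by 1.18-fold and 1.21-fold with the deposited values and higher under total scaling (0.41 and 0.36). Without leukaemia replicate 2 Aff1 no longer passed (adjusted p = 0.0518). Mllt3, the gene of AF9 itself, lay below the filter, at 107, 79.8, 109, 99.3 and 87.2 in leukaemia and 206, 105, 164, 125 and 145 in myeloid replicates 1 to 5, and the groups overlapped. The ratio of Aff1 to Aff4 reads was 2.22-fold higher in leukaemia (log2 ratio difference 0.93 on the deposited scale, exact permutation p = 0.00794, adjusted p = 0.0176). Of 12 further names of elongation partners, 8 were tested, 2 of them higher and 6 lower (median -0.53), with 2 higher and 3 lower under all 3 scalings. Ell2, an elongation factor gene (4.13-fold lower), and Larp7, whose product holds the kinase P-TEFb in its inactive complex (1.68-fold higher), were the extremes by log2 difference.

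The H3K4 methyltransferase genes were mostly lower in leukaemia with the deposited values, 7 of 8, and 3 of these were lower under all 3 scalings: Setd7 (2.16-fold), Setd1b (2.03-fold) and Kmt2e (1.91-fold). Kmt2e was placed in this family and among the writers by its name, without evidence here that its product methylates H3K4. Setd7, a monomethyltransferase gene, had 2197, 2346, 2200.2, 2449 and 2240.4 normalised reads in leukaemia replicates 1 to 5, against 4063, 5572, 3721, 6692 and 4671 in myeloid replicates 1 to 5 (log2 difference -0.93, SE 0.12, adjusted p = 7.14e-06). Myeloid replicates 2 and 4 were its highest libraries, and even the lowest myeloid library was above all 5 leukaemia ones. Kmt2c (1.78-fold lower), Kmt2d (1.46-fold) and Kmt2b (1.19-fold), which encode MLL family enzymes of enhancers and promoters, depended on the scaling. Under total scaling their log2 folds were -0.17, 0.10 and 0.39, and only that of Kmt2b passed. Prdm9, the gene of a methyltransferase known from meiosis, was read at 221 ± 21.5 against 277 ± 43.5 (log2 difference -0.13, SE 0.0593, adjusted p = 0.0447). Its groups overlapped, and it lost its call in 7 of the 10 fits that left out 1 library, namely leukaemia replicate 1, 2, 3 or 4 or myeloid replicate 3, 4 or 5 (adjusted p from 0.0558 to 0.12). Setd1a, a catalytic subunit gene of the SET1 complex, was the exception in this family, with 3249, 3093, 3614, 3090.3 and 3448 normalised reads in leukaemia replicates 1 to 5, against 1959, 1904, 2077, 2185 and 2059.9 in myeloid replicates 1 to 5 (log2 difference 0.58, SE 0.0571, adjusted p = 5.38e-07). In the annotation another protein-coding gene on the same strand covers 51.8% of the Setd1a exon bases, so its reads are uncertain. The ratio of Setd1a to its paralogue Setd1b was 1, 1.02, 1.23, 0.938 and 1.11 in leukaemia and 0.35, 0.321, 0.372, 0.271 and 0.314 in myeloid replicates 1 to 5 (log2 ratio difference 1.47 on the deposited scale). As Setd1a was higher and Setd1b lower without overlap, the separation of this ratio was fixed, and it is a description.

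Ash2l, a core subunit shared by all MLL and SET1 complexes, had the second highest log2 difference of all members. It had 3713, 3605, 4027, 3922 and 4086 normalised reads in leukaemia replicates 1 to 5, against 1054, 1198, 1009, 978 and 1072 in myeloid replicates 1 to 5 (log2 difference 1.48, SE 0.056, adjusted p = 6.51e-11), and every leukaemia library lay far above the highest myeloid one, replicate 2. Of 11 other COMPASS and MLL partner names, 6 were tested, 5 higher and 1 lower (median 0.38), with 4 and 1 under all 3 scalings. Paxip1 (1.86-fold higher), an adaptor of the KMT2C and KMT2D complexes, and Ncoa6 (1.81-fold lower), a coactivator in the same complexes, were the extremes by log2 difference. Dpy30, the partner that binds ASH2L directly, was 1.98-fold higher.

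The H3K36 methyltransferase genes of the NSD family went both ways. Nsd2, which dimethylates lysine 36, had 7315, 7091, 6742, 7092 and 6939 normalised reads in leukaemia replicates 1 to 5, against 3098, 4838, 3917, 5954 and 3992 in myeloid replicates 1 to 5 (log2 difference 0.65, SE 0.122, adjusted p = 0.0002). Myeloid replicate 4 (nearest to leukaemia) and replicate 1 (farthest) differed by more than the group means did. Nsd3 was lower at 3844, 3404, 3879.9, 3425 and 3454 in leukaemia and 9919, 10179.9, 9625, 12499.9 and 10006 in myeloid replicates 1 to 5 (log2 difference -1.40, SE 0.0756, adjusted p = 1.49e-09), and both directions held under all 3 scalings. The ratio of Nsd2 to Nsd3 reads was 1.9, 2.08, 1.74, 2.07 and 2.01 in leukaemia and 0.312, 0.475, 0.407, 0.476 and 0.399 in myeloid replicates 1 to 5, a 4.74-fold difference (log2 ratio difference 2.06 on the deposited scale). As the 2 genes moved in opposite directions without overlap, the separation of this ratio was fixed, and it is a description. Nsd1 (-0.34), Setd2, the gene of the enzyme that trimethylates lysine 36, (-0.30) and Ash1l (-0.46) were lower with the deposited values and had log2 folds above 0 under total scaling (0.27, 0.31 and 0.094, of which Ash1l did not pass). Both H4K20 methyltransferase genes were lower under all 3 scalings. Kmt5a, whose product monomethylates H4K20 around mitosis, had 3619, 3839, 3389.5, 3750.0 and 3400.0 normalised reads in leukaemia replicates 1 to 5, against 8531, 10129, 9394, 12439 and 9446 in myeloid replicates 1 to 5 (log2 difference -1.33, SE 0.0871, adjusted p = 8.82e-09). Kmt5b, which extends that mark, was lower at 2204, 2053, 2289, 2117 and 2174 in leukaemia and 4089, 4109.5, 4348, 5229 and 4362 in myeloid replicates 1 to 5 (log2 difference -0.87, SE 0.0657, adjusted p = 3.55e-08).

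**Figure D2:**
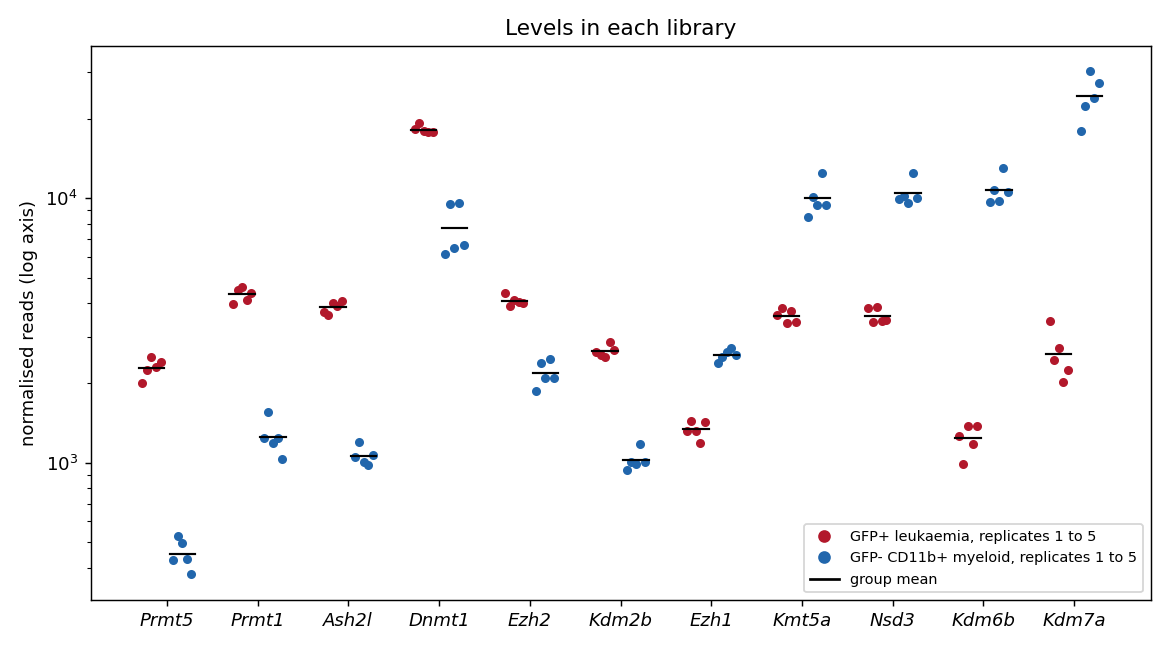
Normalised reads (log axis) of 11 members in each of the 5 leukaemia (red) and 5 myeloid (blue) libraries, in replicate order, with the group mean as a bar. The groups do not overlap for any of the 11 genes, and the 5 at the right fell in leukaemia.

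Among the erasers, the 2 largest differences were decreases in JmjC demethylase genes. Kdm7a, whose product removes methyl groups from H3K9 and H3K27, had 3433, 2452, 2705, 2024 and 2247 normalised reads in leukaemia replicates 1 to 5, against 17962, 22415, 30262, 24015 and 27172 in myeloid replicates 1 to 5 (log2 difference -2.99, SE 0.141, adjusted p = 4.29e-10), a 9.47-fold difference. Leukaemia replicate 1 was the highest of its group and myeloid replicate 1 the lowest of its own, and the groups still lay far apart. Kdm6b (JMJD3), an H3K27 demethylase gene known as a rapid-response gene of macrophages and singled out here after its values were seen, was 8.69-fold lower, with 1256, 991, 1381, 1178 and 1377 normalised reads in leukaemia replicates 1 to 5, against 9669, 10710.5, 9769, 13062 and 10552 in myeloid replicates 1 to 5 (log2 difference -2.68, SE 0.0894, adjusted p = 2.19e-11). Of all tested genes, 1.44% had a log2 difference at or below that of Kdm7a and 2.19% at or below that of Kdm6b. Both kept their direction under all 3 scalings (Kdm7a -2.50 and -2.61, Kdm6b -2.35 and -2.49 after quantile normalisation and under total scaling). The ratio of the H3K27 writer Ezh2 to the H3K27 eraser Kdm6b was 3.49, 3.96, 2.99, 3.43 and 2.93 in leukaemia and 0.192, 0.222, 0.213, 0.189 and 0.198 in myeloid replicates 1 to 5, 16.6-fold higher in leukaemia. As the separate changes of both genes were already known, this ratio is a description.

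The remaining JmjC genes differed less. Kdm4c, an H3K9 and H3K36 demethylase gene, was 1.84-fold lower under all 3 scalings (1350.4 ± 66.6 against 2489 ± 82.3). Kdm5a (1.72-fold), Kdm5b (1.58-fold), Kdm2a (1.63-fold), Jmjd1c (1.44-fold), Kdm4b (1.33-fold), Kdm4a (1.26-fold), Kdm3b (1.23-fold) and Kdm3a (1.2-fold) were lower with the deposited values. Under total scaling none of these 8 was called lower, and Kdm4b (0.24), Kdm4a (0.30), Kdm3b (0.35) and Kdm3a (0.37) were called higher. The annotation places a noncoding transcript of the opposite strand over 24.6% of the Kdm3b exon bases. Kdm2b, the H3K36 demethylase gene whose product also brings Polycomb to CpG islands, was higher, with 2619, 2548, 2510.1, 2863 and 2673 normalised reads in leukaemia replicates 1 to 5, against 935, 1008, 992, 1177 and 1003 in myeloid replicates 1 to 5 (log2 difference 1.05, SE 0.056, adjusted p = 1.38e-09). Its ratio to Kdm2a was 0.531, 0.567, 0.548, 0.604 and 0.586 in leukaemia and 0.141, 0.139, 0.14, 0.122 and 0.137 in myeloid replicates 1 to 5 (log2 ratio difference 1.68 on the deposited scale). As Kdm2b was higher and Kdm2a lower without overlap, the separation of this ratio was fixed, and it is a description. Kdm8 was 2.06-fold higher (369 ± 44 against 179 ± 32.7).

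Tet1 was the 5-methylcytosine dioxygenase gene with an entry, and Tet2 and Tet3 were not analysed here. TET enzymes oxidise methylated cytosine and so begin its removal. Tet1 was low in both groups, with 263, 195, 289.8, 256 and 246 in leukaemia and 96.8, 139, 100.1, 143 and 106 in myeloid replicates 1 to 5 (2.14-fold higher, log2 difference 0.39, SE 0.0606, adjusted p = 3.68e-05). Kdm1a (LSD1), an H3K4 demethylase gene, differed least among the erasers on the deposited scale, with 1560.4, 1474, 1591, 1602 and 1547 in leukaemia and 1382, 1405, 1479, 1336 and 1409 in myeloid replicates 1 to 5 (log2 difference 0.11, SE 0.0453, adjusted p = 0.0293). With the deposited values its groups overlapped, and it lost its call without myeloid replicate 4 (adjusted p = 0.0543) and without leukaemia replicate 3 (0.0625), 4 (0.0645) or 5 (0.0521). Kdm1a was called higher under all 3 scalings, with log2 folds of 0.24 after quantile normalisation and 0.79 under total scaling.

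None of the remaining tested SET and PR domain genes reached an absolute log2 difference of 1 on the deposited scale. Setd6, whose product methylates the NF-kB subunit RelA, had 325, 318, 318, 312 and 364 in leukaemia and 113, 116, 129, 94.6 and 129 in myeloid replicates 1 to 5 (log2 difference 0.57, SE 0.0493, adjusted p = 1.43e-07), and Setd3, an actin histidine methyltransferase gene, had 2221, 2334, 1988, 2039 and 2123 in leukaemia and 3184, 3813, 3270.1, 3752 and 3432 in myeloid replicates 1 to 5 (log2 difference -0.59, SE 0.0622, adjusted p = 1.02e-06). Under total scaling Setd3 no longer passed (-0.065). Prdm11 was 3.06-fold higher, at 482, 445, 479.6, 493 and 455 in leukaemia and 163, 144, 151, 170.3 and 140.0 in myeloid replicates 1 to 5 (log2 difference 0.70, SE 0.0461, adjusted p = 9.25e-09). Prdm15 had overlapping groups at 884, 721, 818, 788 and 764 in leukaemia and 649, 648, 604, 828.8 and 610.1 in myeloid replicates 1 to 5 (log2 difference 0.16, SE 0.0628, adjusted p = 0.0265), and its adjusted p rose above 0.05 without leukaemia replicate 1 or 3 or myeloid replicate 3 or 5 (0.0531 to 0.0667). After quantile normalisation Prdm15 no longer passed (log2 fold 0.085, adjusted p = 0.216).

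Besides Dnmt3l and Mllt3, 3 members lay below the filter. Setd4 had 99.3 ± 12.5 against 35.1 ± 16.1 normalised reads, without overlap. Prdm1, which encodes the transcription factor Blimp-1, had 62.6, 36.9, 28, 18.7 and 29.7 in leukaemia and 298, 42.5, 222, 39.1 and 219 in myeloid replicates 1 to 5, and overlapped. It was high in myeloid replicates 1, 3 and 5, the libraries in which the dendritic and MHC class II markers summed to 61563, 43633 and 39741 normalised reads, against 5823 and 6123 in replicates 2 and 4. Replicates 1, 3 and 5 also had the higher sums of B cell markers (2249, 1184 and 1033, against 537 and 483 in replicates 2 and 4). The same held for monocyte and macrophage markers (101111, 108107 and 97373, against 57204 and 63149) and for erythroid markers (336, 227 and 202, against 29.5 and 17.7). The part of any of these cells in the Prdm1 level was not tested. Prdm16, a gene of haematopoietic stem cells, had 0 reads in all leukaemia libraries and 184 in all in the myeloid ones. The myeloid mean of 45.6 normalised reads was at least 95.6-fold higher than the level of 3 reads over the whole leukaemia group. With no filter on low values the 5 members also passed, Dnmt3l and Setd4 higher and the other 3 lower. A call was the usual outcome there too, as 5150 of all 10141 genes were higher and 4938 lower.

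Ratios between related genes compared members within a library. Ratios and folds are given in reads, whereas the tests used differences of the deposited values, which compress genes with few reads. The pairs were chosen with earlier results known. Of 20 pairs of tested members, 11 differed between the groups at an adjusted p under 0.05 (two-sided exact permutation of the group labels, adjusted over the 20 pairs; the smallest p it can give is 0.00794). Among the 11 are Ezh2 to Kdm6b, Ezh2 to Ezh1, Eed to Suz12, Setd1a to Setd1b, Kdm2b to Kdm2a, Nsd1 to Nsd2 and Nsd2 to Nsd3. In each of these the 2 genes moved in opposite directions without overlap with the deposited values. Their ratios had to separate, which fixes the smallest p, so these ratios are descriptions and not tests. With the log2 ratio of reads in place of the deposited values, the 11 pairs passed and so did Dnmt3b to Dnmt3a. Besides those above, Kdm4a rose relative to Kdm4c (1.46-fold), Nsd1 fell relative to Nsd2 (2.15-fold), and Kmt2c fell relative to Kmt2d (1.21-fold), as did Kdm2a relative to Setd2 (1.29-fold). The last rested on the number of libraries: it lost its call in 6 of the 10 tests that left out 1 library, namely leukaemia replicate 1 or 3 or myeloid replicate 1, 2, 4 or 5 (adjusted p from 0.0529 to 0.0577 in those tests). Kmt2c to Kmt2d lost its call without myeloid replicates 2 and 4 together (adjusted p = 0.0595). The other 9 pairs did not pass on the deposited scale. For Dnmt3b to Dnmt3a the reads gave 0.113, 0.136, 0.1, 0.0812 and 0.0849 in leukaemia and 0.0711, 0.0865, 0.0502, 0.0436 and 0.0567 in myeloid replicates 1 to 5, a ratio 1.67-fold higher in leukaemia with overlapping groups. The log2 difference of that ratio was 0.75 in reads (exact permutation, adjusted p = 0.0397) and of the opposite sign on the deposited scale (log2 ratio difference -0.25 on the deposited scale, exact permutation p = 0.0952, adjusted p = 0.119), so its direction is uncertain. Leaving out 1 library gave a call on the deposited scale for Jmjd1c to Kdm3a (without leukaemia replicate 1, exact permutation, adjusted p = 0.0159), Suv39h1 to Suv39h2 (myeloid replicate 2, 0.0159), Prmt5 to Prmt7 (myeloid replicate 3, 0.0159), Ehmt2 to Ehmt1 (myeloid replicate 3, 0.0265) and Dnmt3b to Dnmt3a (leukaemia replicate 2, 0.0397). In reads the ratio was lower in leukaemia by 1.2-fold for Jmjd1c to Kdm3a, 1.15-fold for Suv39h1 to Suv39h2, 1.02-fold for Prmt5 to Prmt7 and 1.02-fold for Kdm3b to Kdm3a. It was higher by 1.1-fold for Kdm5b to Kdm5a, 1.07-fold for Ehmt2 to Ehmt1, 1.05-fold for Kdm4a to Kdm4b and 1.03-fold for Dnmt1 to Dnmt3a.

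**Figure D3:**
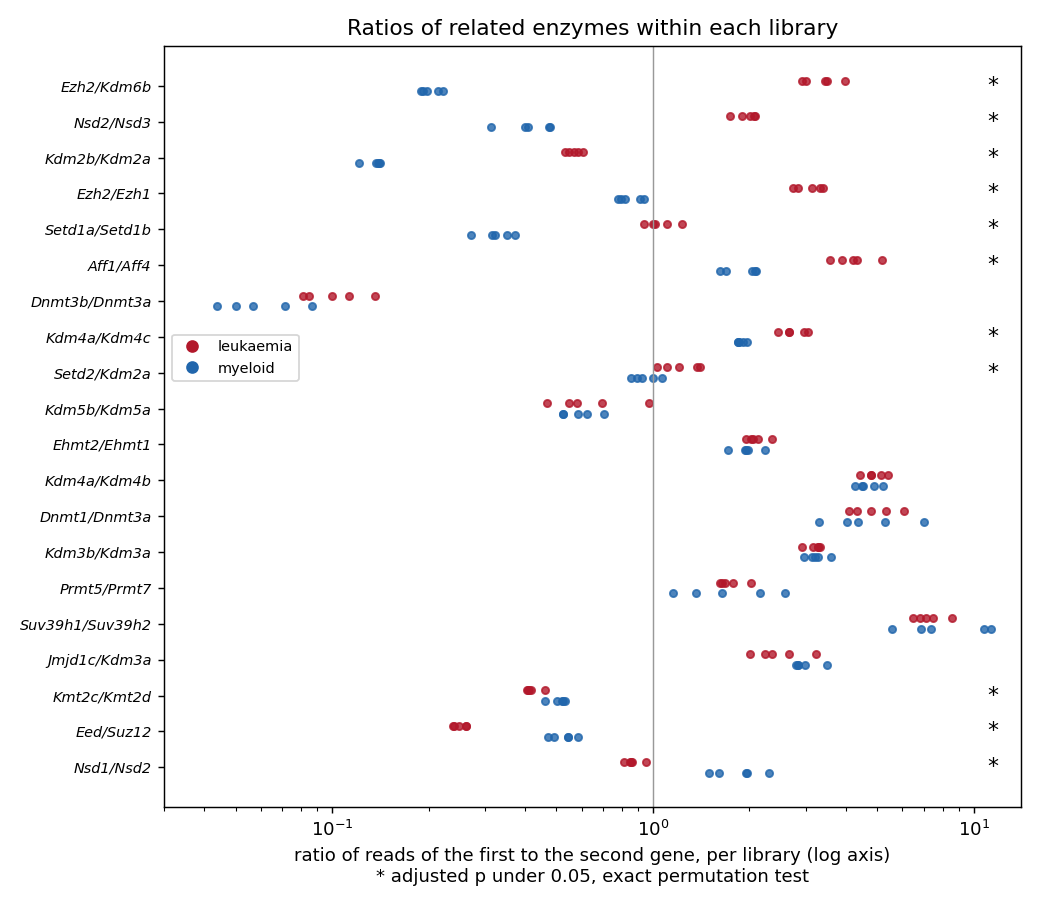
Ratio of the reads of 2 related genes in each library (x axis, log scale; leukaemia red, myeloid blue), for the 20 pairs tested (y axis). Stars mark an adjusted p under 0.05 in the exact permutation test on the deposited scale. Where the 2 genes moved in opposite directions without overlap, the p was fixed in advance and the ratio is a description. The Ezh2 to Kdm6b, Nsd2 to Nsd3, Kdm2b to Kdm2a and Ezh2 to Ezh1 ratios, all of such pairs, are separated most widely toward leukaemia.

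Genes that work with these enzymes were read from lists beside them. In the list of PRC2 accessory and PRC1 genes, 11 of 18 tested were higher and 7 lower (median 0.26), with 11 and 3 under all 3 scalings. Bmi1, a PRC1 gene of stem cell self-renewal, was 2.84-fold higher, and Phf1, a PRC2 accessory gene, was 8.89-fold lower. Among readers of methyl marks 12 of 21 were higher and 9 lower (median 0.40), with 12 and 2 under all 3 scalings. Trim28, the corepressor that brings SETDB1 to chromatin, was 3.47-fold higher, and the methyl-CpG binding gene Mbd2 was 2.66-fold lower. Uhrf1, which guides DNMT1 to hemimethylated DNA, was 3.17-fold higher. In the list of methyl donor and cofactor genes 12 of 16 were higher and 4 lower (median 1.22), with 12 and 1 under all 3 scalings. Ahcy, whose product clears the methyltransferase inhibitor S-adenosylhomocysteine, was 4.44-fold higher, and Mat2a, which makes the methyl donor S-adenosylmethionine, 2.38-fold higher. The isocitrate dehydrogenase gene Idh2 was its highest member, and Ahcyl2 the lowest (2.43-fold lower). Of 18 names of other methylation enzymes and corepressors, 12 were tested, 8 of them higher and 4 lower (median 0.53), with 8 and 2 under all 3 scalings. Gfi1, a repressor gene whose product recruits LSD1, was 3.98-fold higher, and the JmjC gene Riox1 was 2.82-fold lower. The lists were drawn up with earlier results of these data known, and over all tested genes 49.1% were higher and 50.7% lower.

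Marker lists placed the other cells that the gates could hold. Of the monocyte and macrophage markers 1 of 8 tested was higher and 7 lower with the deposited values, but 1 higher and 2 lower under all 3 scalings, while 5 depended on the scaling. All 7 dendritic and MHC class II markers tested were lower under all 3 scalings. The B cell list had 6 of 9 genes with an entry, summed to at most 591 normalised reads in leukaemia and to between 483 and 2249 in myeloid libraries. The T and NK cell list summed to between 2926 and 5879 and between 2532 and 6233, with Nkg7 the largest part in leukaemia and Cd3g at 0 reads there. The erythroid list, with 3 of 10 entries, reached at most 62 and 336. Of the sort and fusion markers, Hoxa9, Meis1, Kit and Cd34 were higher and Itgam (CD11b) and Ptprc (CD45) lower in the GFP+ libraries.

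The members varied more among myeloid than among leukaemia libraries: the median coefficient of variation over the 58 tested members was 12.9% and 6.38%, and it was larger in myeloid cells for 46 of them. The coefficient was not computed over all tested genes, so whether this is particular to the members is unknown. Myeloid replicate 4 was the highest library of its group for 37 of 58 members (63.8%), against 29.9% of all tested genes. Leukaemia replicate 2 was the lowest of its group for 26 members (44.8%), against 21.4% of all tested genes. The long genes stood out in both libraries. Kmt2c, for instance, had 4915, 3459.9, 4803, 4029 and 4496 in leukaemia and 6162, 6339, 7103, 10663 and 8271 in myeloid replicates 1 to 5. Across the tested members, the deviation of myeloid replicate 4 from its group mean correlated with exon length at a Spearman rho of 0.65, and that of leukaemia replicate 2 at -0.53 (58 genes that share a library), against 0.26 and -0.36 over 8071 genes. Other libraries also went with length. The rho was -0.43 over members and -0.31 over all genes for myeloid replicate 2, and 0.41 and 0.35 for leukaemia replicate 1. For leukaemia replicate 3 it was 0.32 and 0.24, and for myeloid replicate 3 it was -0.35 and 0.10. Without myeloid replicate 4 and leukaemia replicate 2, an alternative chosen after seeing the data, 27 members were higher and 28 lower, and Aff1, Prdm9 and Setd2 no longer passed.

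Exon length also went with the direction of the difference. Of 23 tested members with at least 10000 bases of exon, 6 were higher and 17 lower in leukaemia (median -0.51), and of 35 shorter members 21 were higher and 14 lower (median 0.45). Over all tested genes with a length, 345 of 826 long genes were higher and 481 lower (median -0.33). Of 7245 shorter genes 3618 were higher and 3610 lower (median -0.12). The Spearman rho between log2 difference and exon length was -0.37 over the 58 members and -0.07 over 8071 genes, as a description across genes that share libraries. All H3K36 methyltransferase genes fell in the longer set and all arginine methyltransferase genes in the shorter one. The part of length in the differences was not tested.

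**Figure D4:**
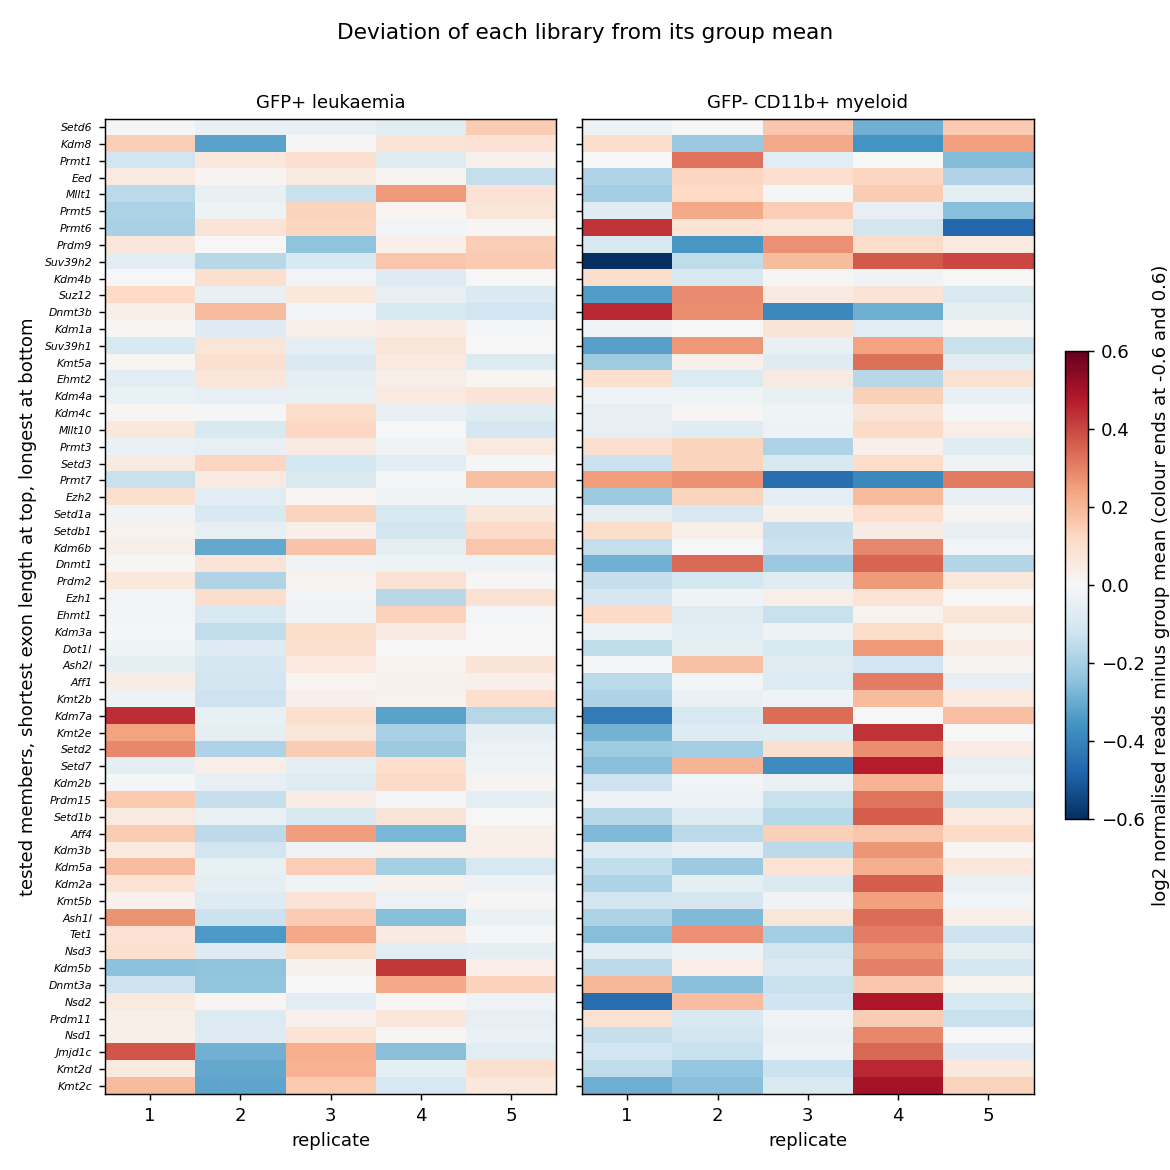
Deviation of each library (x axis, replicates 1 to 5 of each group) from its group mean in log2 normalised reads (colour), for the 58 tested members ordered by exon length (y axis, longest at the bottom). Myeloid replicate 4 is above its group mean (red) for most of the long members, and leukaemia replicate 2 is below its own (blue).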

How the data were processed

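RNA sequencing libraries of GFP+ leukaemia cells (5) and GFP- CD11b+ myeloid cells (5) were compared. The authors deposited 1 table of 10141 genes, in log2 units after normalisation and variance stabilisation. Per the submitters' processing notes HISAT2 (2.0.4 and 2.2.1) and DESeq2 were used. Genome build, annotation, read counter and strand setting are not given in the sources used here. Values shared a lowest value, 8.1823, taken as 0 reads, and inverting the variance-stabilising function gave whole reads (tolerance 0.1 read, up to 300.0 reads) for 100.0% of low values in each library. The steps and the limma fit were tested on simulated data. The fit used limma 3.58.1 (R 4.3.3) with a trended prior, leukaemia minus myeloid, on genes with a mean over 1 unit above the lowest value, two-sided, with Benjamini-Hochberg adjustment at 0.05. Ratios of 2 members were tested with an exact permutation test. Exon lengths and overlaps came from GENCODE vM21, and promoters from RefSeq. The members, lists and pairs were chosen with earlier results of these data known, and how the genes of the table were selected is not given in the sources used here. Values in every library are given for the highest and lowest member of each family, and for others a result turned on. Alternatives covered the filter, scaling, voom, a replicate block and left-out libraries.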

Additional observations from a re-analysis of the deposited data

Results flagged for a closer look

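In 9 of 125 groups of 5 libraries, 1 library stood apart from the other 4, by a gap of more than 0.71 of the range of the group on the deposited scale. Chance gives this in about 1 of 20 groups. In 6 of the 9 the library was myeloid replicate 4, in each case the highest. It held 12499.9 normalised reads of Nsd3 (others 9625 to 10179.9), 5229 of Kmt5b (4089 to 4362), 9683 of Kdm2a (6623 to 7303), 5167 of Kdm4a (4536 to 4601), 8839 of Jmjd1c (6355 to 6859) and 828.8 of Prdm15 (604 to 649). Leukaemia replicate 2 was low for Aff1, at 6208 (others 6782 to 6937). Leukaemia replicate 5 was high for Setd6, at 364 (312 to 325), and low for Eed, at 1335 (1490.0 to 1534).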

How the results depend on the processing

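The counts of members called higher or lower depended most on the scaling, as did those of all 8079 tested genes. Of these, 3311 were lower after quantile normalisation and 2232 under total scaling, against 4097 with the deposited values. After quantile normalisation 18 members, 9 writers and 6 erasers were lower, with 12 members higher and 2 lower by at least 1 on the log2 scale. With total scaling, also fitted with voom, 12 members, 8 writers and 3 erasers were lower, 8 erasers were higher, and 24 members were higher and 2 lower by at least 1. With voom on recovered reads and the size factors of the table, 15 members were higher by at least 1, since that scale does not compress low genes. The count of 24 therefore mixes the change of scale with the change of scaling. A stricter filter left 2 erasers higher, as fewer genes were tested. Leaving out 1 library at a time gave 25 to 27 members higher and 29 to 31 lower, 17 writers higher and 14 to 15 lower, 3 to 4 erasers higher and 11 lower, 6 to 7 members higher and 5 to 7 lower by at least 1, and 10 to 13 pairs.

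Log2 folds changed sign after quantile normalisation for Aff1 (0.37), Jmjd1c (0.066), Kdm3a (0.047), Kdm3b (0.31), Kdm4a (0.20), Kmt2b (0.27), Kmt2d (0.082), Mllt10 (0.20), Nsd1 (0.24) and Setd2 (0.27). Under total scaling they did so for Aff1 (0.41), Ash1l (0.094), Eed (0.063), Jmjd1c (0.096), Kdm3a (0.37), Kdm3b (0.35), Kdm4a (0.30), Kdm4b (0.24), Kmt2b (0.39), Kmt2d (0.10), Mllt10 (0.36), Nsd1 (0.27), Prdm9 (0.33) and Setd2 (0.31). Over all tested genes, total scaling raised the median log2 fold by 0.64 and quantile normalisation by 0.25. Why the scalings differ was not tested. Among pairs that did not pass on the deposited scale, the log2 ratio Kdm4a/Kdm4b was between -0.055 and 0.0056 with 1 library left out (above 0 without myeloid replicate 4), 0.031 without myeloid replicates 2 and 4, and 0.072 from recovered reads. The log2 ratio Kdm3b/Kdm3a was 0.0047 without myeloid replicates 2 and 4. From recovered reads the log2 ratio Suv39h1/Suv39h2 was -0.15 and the log2 ratio Dnmt3b/Dnmt3a 0.75 (exact permutation, adjusted p = 0.0397).

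With the replicate number as a replicate block 26 members were higher and 30 lower, and Kdm1a (adjusted p = 0.0578) and Prdm9 (0.0762) lost their calls. The correlation of deviations between same-numbered libraries was -0.022 for number 5 and from 0.13 to 0.32 for the others, and 2 of 5 leukaemia libraries correlated best with their own number, and the labels do not say that a number marks a shared mouse, so whether the numbers pair the libraries is unknown. A sign-flip test of paired ratios was not run, since its smallest p with 5 pairs is 0.0625.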
